A study of Mus musculus with 14 samples.

Results

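The cytosolic heat shock genes followed here were 10 genes chosen by their symbols: Hspa1a, Hspa1b, Hsph1, Hspb1, Dnajb1, Hspa8, Hsp90aa1, Hsp90ab1, Bag3 and Hsf1. All 10 were found once in each of the 2 count tables, which listed 26570 genes for the basal experiment and 25933 for the learning experiment, and all 10 passed the filter on low counts in both. RNA was sequenced from the dorsal hippocampus of male C57BL6 mice (C57BL6/J per the methods) aged 8 months, either wild type or THY-Tau22, a heterozygous line in which a mutated human tau transgene is driven in neurons by a Thy1 promoter. The basal experiment held 3 wild-type libraries (WT) and 2 THY-Tau22 libraries from mice taken at rest. In the learning experiment every animal had been injected before RNA was taken. Wild-type mice received saline and were either kept in the home cage (WT VEH_HC, 3 libraries) or trained for spatial memory in a Morris water maze (WT VEH, 2 libraries). Trained THY-Tau22 mice received the carbon nanosphere carrier CSP alone (TAU VEH, 2 libraries) or CSP carrying TTK21, an activator of the acetyltransferases CBP and p300 (TAU MOL, 2 libraries). There was no home cage THY-Tau22 group in this experiment, and genotype and carrier differ together between TAU VEH and WT VEH, so these cannot be told apart.

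Cytosolic chaperones keep proteins folded. HSP70 proteins bind exposed stretches of a client, J-domain proteins such as Dnajb1 bring the client and trigger ATP hydrolysis, nucleotide exchange factors such as Hsph1 and Bag3 release it, and HSP90 proteins finish folding of many kinases and receptors. Hspa8, the constitutive HSC70, and Hsp90ab1 are made in most cells at all times, whereas Hspa1a, Hspa1b, Hspb1, Dnajb1, Hsph1, Bag3 and part of Hsp90aa1 expression are driven by heat shock factor 1, the product of Hsf1. This factor is itself regulated mainly as a protein, being held inactive by chaperones and binding, as a trimer, to alternating GAA and TTC units. In neurons, HSP70 and HSP90 complexes bind tau, and the classical heat shock response is known to be weak.

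The promoter letters are shown as a description of these windows. The genes were chosen as heat shock genes, most of them driven by the factor that binds these units. Finding the units here is therefore no independent result. In RefSeq promoters on GRCm38.p6, which run from 250 bases before to 50 bases after a start site, 6 of the 10 genes had an entry. The searched pairs of units, GAANNTTC and TTCNNGAA, each read the same on both strands. At least 1 pair was found in 5 of these genes, against 15.1% of all 32851 promoters, where GAANNTTC was held by 7.86% and TTCNNGAA by 8.52%. The 15.1% is counted per promoter and the 5 per gene, and Hsph1 had more than 1 promoter entry. Hspa1a and Hspa1b, with nearly identical promoters, each count among the 5. Dnajb1 was the gene with an entry and no match, which says only that these letters are not in its windows. Capitals mark the matched pairs, all read 5′ to 3′ on the gene's strand, with Hspa1a at chr17:34972222-34972291 (minus), Hspa1b at chr17:34959304-34959373 (minus), Hspb1 at chr5:135887781-135887850 (plus), Hsph1 at chr5:149636337-149636406 and chr5:149636287-149636316 (minus), and Bag3 at chr7:128523603-128523632 (plus).
Hspa1a: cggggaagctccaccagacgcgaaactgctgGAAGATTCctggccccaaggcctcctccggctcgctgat
Hspa1b: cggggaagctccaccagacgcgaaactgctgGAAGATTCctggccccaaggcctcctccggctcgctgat
Hspb1: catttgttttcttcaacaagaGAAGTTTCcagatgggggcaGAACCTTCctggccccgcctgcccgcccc
Hsph1, before the start: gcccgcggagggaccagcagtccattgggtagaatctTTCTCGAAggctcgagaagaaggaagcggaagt
Hsph1, after the start: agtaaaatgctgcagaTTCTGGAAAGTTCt
Bag3, after the start: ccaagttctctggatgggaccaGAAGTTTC

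The matches began 104 bases before the start site in both Hspa1a and Hspa1b, and 117 and 97 bases before it in Hspb1. Hsph1 was the only one of the 5 with 3 consecutive units, TTCNNGAANNTTC, which either strand of 0.603% of all promoters held. The Hspa1a and Hspa1b promoters were identical at 296 of 300 bases.

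The same likeness reaches into the transcripts, and it limits what the counts of these genes can hold. Only reads with 1 place in the genome had been counted. On mm9, the build of the count tables, Hspa1a (chr17:35106144-35109069) and Hspa1b (chr17:35093381-35096183) are neighbouring genes of 1 exon each on the minus strand. Their coding sequences, of 1926 and 1929 bases, were 99.6% identical once the extra codon of Hspa1b was set aside, with 8 differing bases and an identical run of 638 bases. The pair of stretches below, Hspa1a at chr17:35107455-35107504 and Hspa1b at chr17:35094537-35094586, is the 50-base window with the most differences before that codon, with the differing bases in capitals.
Hspa1a: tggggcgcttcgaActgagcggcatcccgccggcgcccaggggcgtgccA
Hspa1b: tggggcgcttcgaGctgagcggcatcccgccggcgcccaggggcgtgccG

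Of all 50-base windows along the coding sequence, 82.3% held no difference at all between both genes. Over whole exons, 39.0% of the windows of Hspa1a and 37.7% of those of Hspa1b occurred once in the genome. Hspb1 (44.4%) and Hsp90aa1 (43.8%) were little better, and 62.7% of the windows of Hspa8 occurred once. The share was 92.8% for Hsp90ab1 and 99.3% for Dnajb1, and every window of Hsph1, Bag3 and Hsf1 occurred once. The same windows are closed to unique reads in every library, so this touches levels between genes more than differences between groups. Hspa1a also overlaps the gene model Gm20481, and 3 small nucleolar RNA genes lie within Hspa8.

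**Figure D1:**
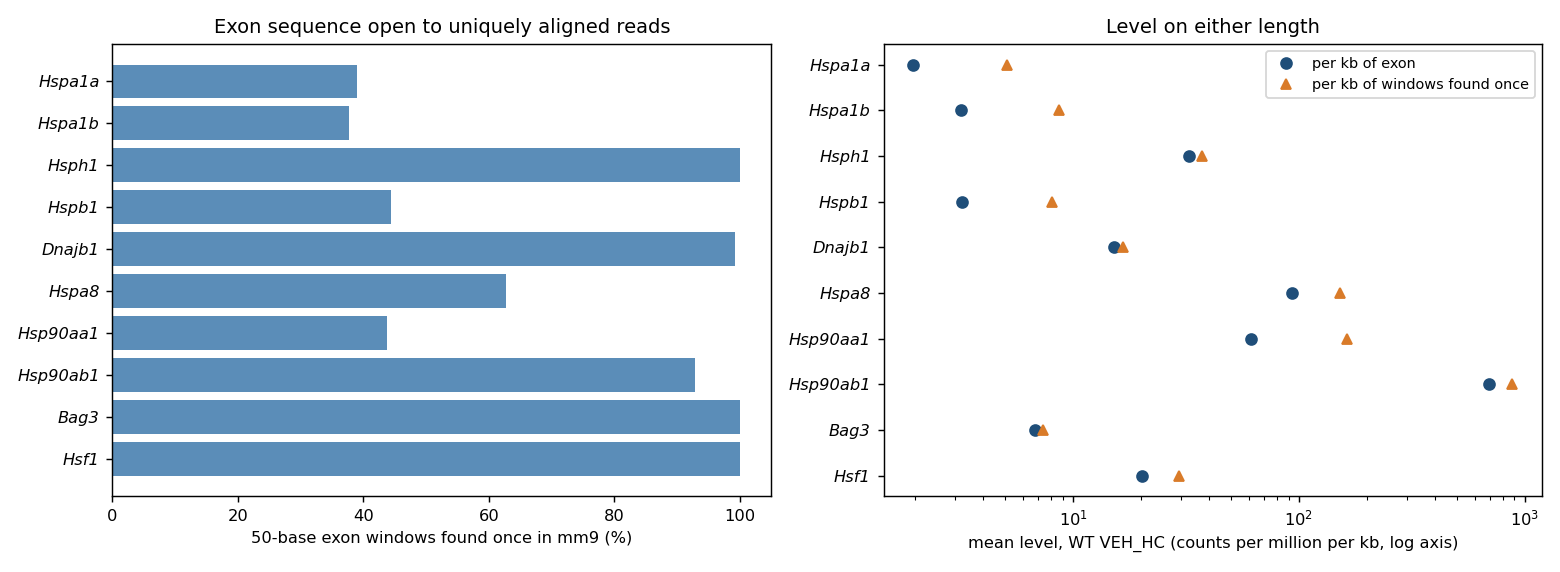
Left, share of 50-base exon windows that occur once in the mm9 genome for each gene (bars, in %). Right, mean level in the 3 WT VEH_HC libraries in CPM per kb on a log axis, over all exon positions (circles) or over windows that occur once and lie in 1 exon (triangles). Hspa1a, Hspa1b, Hspb1 and Hsp90aa1 have the smallest shares of windows found once, and their 2 levels lie furthest apart.

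Levels between genes were compared as CPM, which are counts scaled to the same total per library, divided by kb of exon. Hsp90ab1 was the most abundant in all 6 groups, with group means from 590.1 to 698 CPM per kb. Hspa8 followed with 93.4 to 143 and Hsp90aa1 with 61.6 to 112. Both lay below Hsp90ab1 in every library, and Hspa8 above Hsp90aa1. Hsph1 came next, with 32.5 to 44.1 CPM per kb. Dnajb1, with 15.1 to 22.9, and Hsf1, with 15.1 to 20.2, were neighbours whose order changed: Hsf1 stood above Dnajb1 in WT VEH_HC and below it in the other 5 groups, and their libraries overlapped in basal THY-Tau22. Bag3 had 6.01 to 8.51, while Hspa1b (3.19 to 4.31), Hspb1 (2.98 to 3.42) and Hspa1a (1.69 to 2.27) closed the list. Hspb1 and Hspa1b overlapped within their spread in WT, THY-Tau22 and WT VEH_HC and changed places between groups. Counted over windows that occur once, Hsp90aa1 stood above Hspa8 in all 6 groups, and Hsf1 stood above Dnajb1 in all groups but WT. Bag3 then lay below both Hspa1b and Hspb1 in WT, THY-Tau22, WT VEH_HC and TAU VEH, and below Hspa1b alone in TAU MOL, so the order of these genes depends on the length used. The Hsp90ab1, Hspa8 and Hsp90aa1 transcripts together made up 86.2% to 89.1% of the summed CPM of the 10 genes. At the other end, Hspb1 rested on 61 to 244 reads per library and Hspa1a on 119 to 381, so counting error weighs most on these genes.

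The libraries held 28639121 to 37681155 counted reads in the basal experiment and 24693713 to 52180305 in the learning experiment. All 8 markers of dorsal hippocampal neurons were detected in every library, from 7.57 CPM upward for Spink8 and from 5031 CPM for Camk2a. Some facts of the libraries move with the groups. These 8 markers summed to 13739.5 to 16152 CPM in WT VEH_HC and 14904 to 15249 in WT VEH, but to 10142 to 10554 in TAU VEH and 10152 to 11080.4 in TAU MOL. The 14 choroid plexus markers, none at 0 in any library, summed to 159.9 to 416 CPM in WT VEH_HC, 2193 to 3146 in WT VEH, 464 to 545 in TAU VEH, then 1072 to 1184 in TAU MOL. In the learning experiment, the rank correlation of each library's deviation from the mean with gene GC content was 0.41 to 0.45 in WT VEH_HC, 0.085 and 0.28 in WT VEH, −0.62 and −0.41 in TAU VEH, then −0.40 and −0.47 in TAU MOL. In the basal experiment THY-Tau22 replicate 2 stood apart, with a choroid plexus sum of 1994 CPM against 597 to 715 in the other 4 libraries, and with a GC correlation of −0.60 against 0.48 in THY-Tau22 replicate 1. In WT VEH_HC replicate 2 the 6 oligodendrocyte markers summed to 3811 CPM, against 6411 to 8348 in the other 8 learning libraries.

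**Figure D2:**
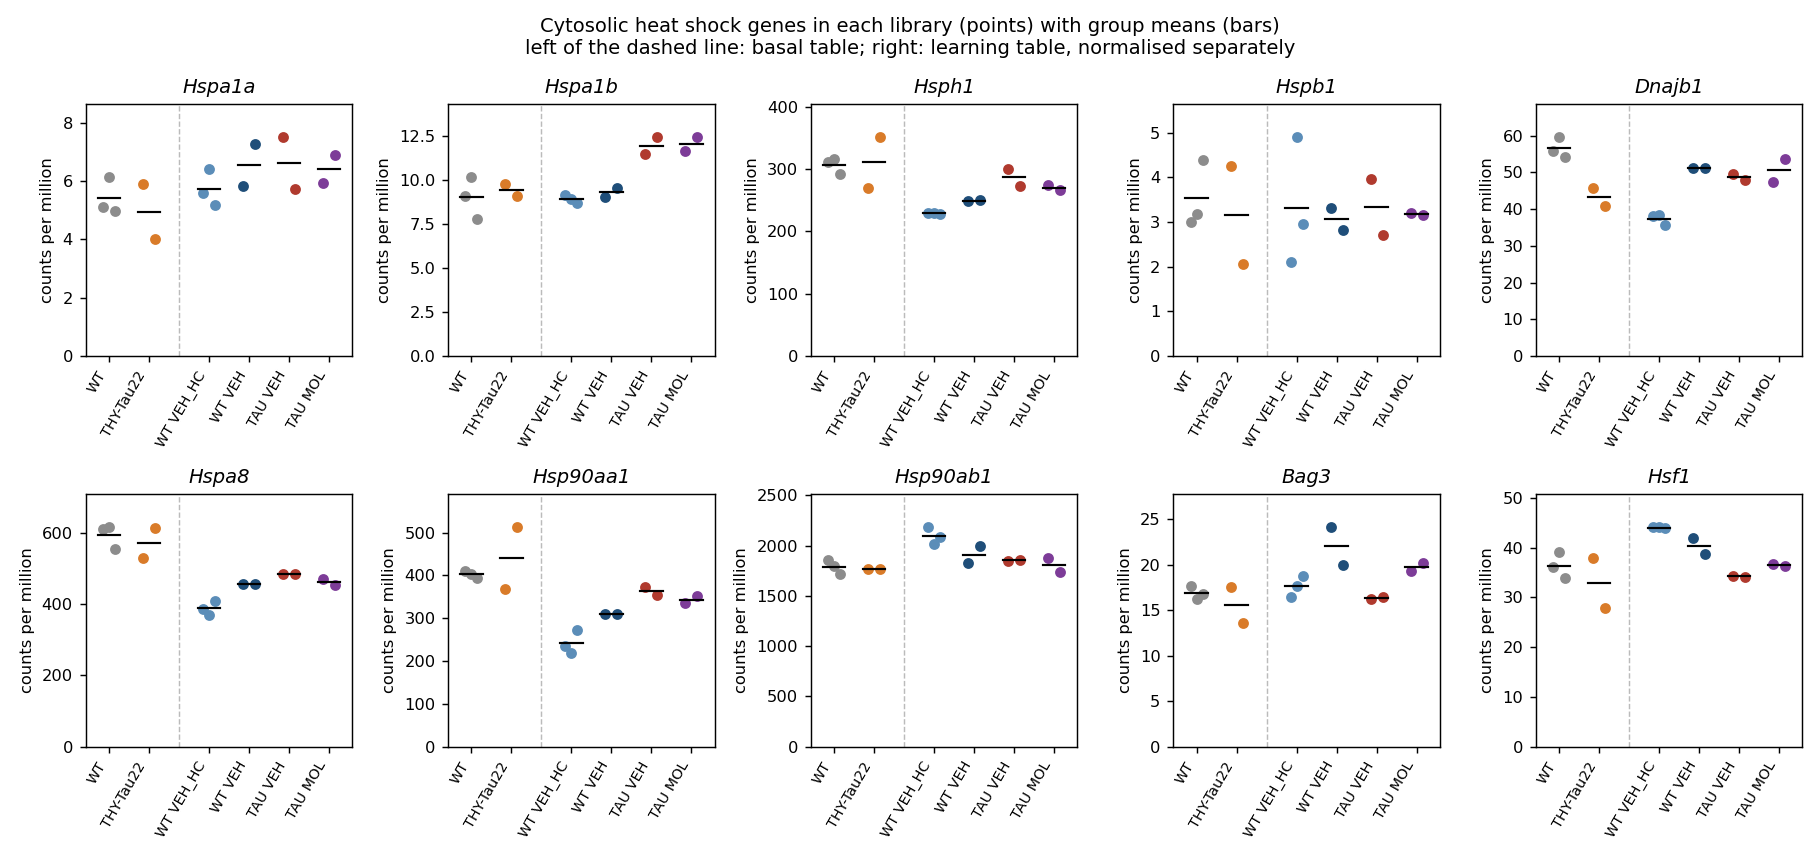
Level of each gene in CPM (linear axes from 0) in every library (points) and the group mean (bars), by group. Dnajb1, Hspa8 and Hsp90aa1 lie higher in all trained groups than in WT VEH_HC, Hsf1 lies lower, and the 2 tables on either side of the dashed line were normalised separately.

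At rest, THY-Tau22 and wild-type hippocampus were compared to ask whether tau pathology alone goes with a change in these chaperones. None of the 10 genes was called, a call being an adjusted p under 0.05 with a log2 fold change beyond 0.2 in either direction. Of 16324 genes tested, 0.00613% were called higher and 0.0184% lower, which is 4 genes, while 803 had an unadjusted p under 0.05 in the edgeR quasi-likelihood test. Dnajb1, the J-domain partner of inducible HSP70, was measured at 56.0, 59.8 and 54.1 CPM in WT and at 45.8 and 40.9 in THY-Tau22. Both THY-Tau22 libraries lay below all 3 of WT. The log2 fold change was −0.39 (SE 0.12, unadjusted p = 0.008, adjusted p = 0.90), so Dnajb1 fails the correction over all genes. Over 11 alternative fits its adjusted p lay between 0.098 and 1.0. It was the only one of the 10 without overlap between groups, beside 9.49% of all genes lower without overlap and 9.01% higher. In the same libraries the 6 oligodendrocyte markers summed lower without overlap in THY-Tau22 (6549 to 6863 CPM against 7053 to 11677 in WT), and the 6 microglia markers higher (366 to 400 against 338 to 353). None of these 12 markers was called, and their part was not tested.

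The inducible Hsp90aa1 differed more between both THY-Tau22 libraries than between genotypes, with 367 and 513 CPM against 394 to 411 in WT. Hsph1 behaved alike, with 269 and 352 CPM against 292 to 316. Hsf1 (38.0 and 27.8 CPM) and Bag3 (17.5 and 13.6 CPM) went the other way, being lower in replicate 2. The higher Hsp90aa1 and Hsph1 values were those of THY-Tau22 replicate 2, the library that stands apart above. Hspa1b gave 9.77 and 9.09 CPM against 7.79 to 10.2 in WT, and Hspa8 530.4 and 613 against 555 to 616. The 95% intervals of the 9 genes other than Dnajb1 all included 0, and the widest, of Hspb1, ran from −0.84 to 0.53 on the log2 scale. The narrowest of these 9, of Hsp90ab1, ran from −0.28 to 0.25. Of 56 other cytosolic chaperones and factors tested at rest, 0 were called.

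**Figure D3:**
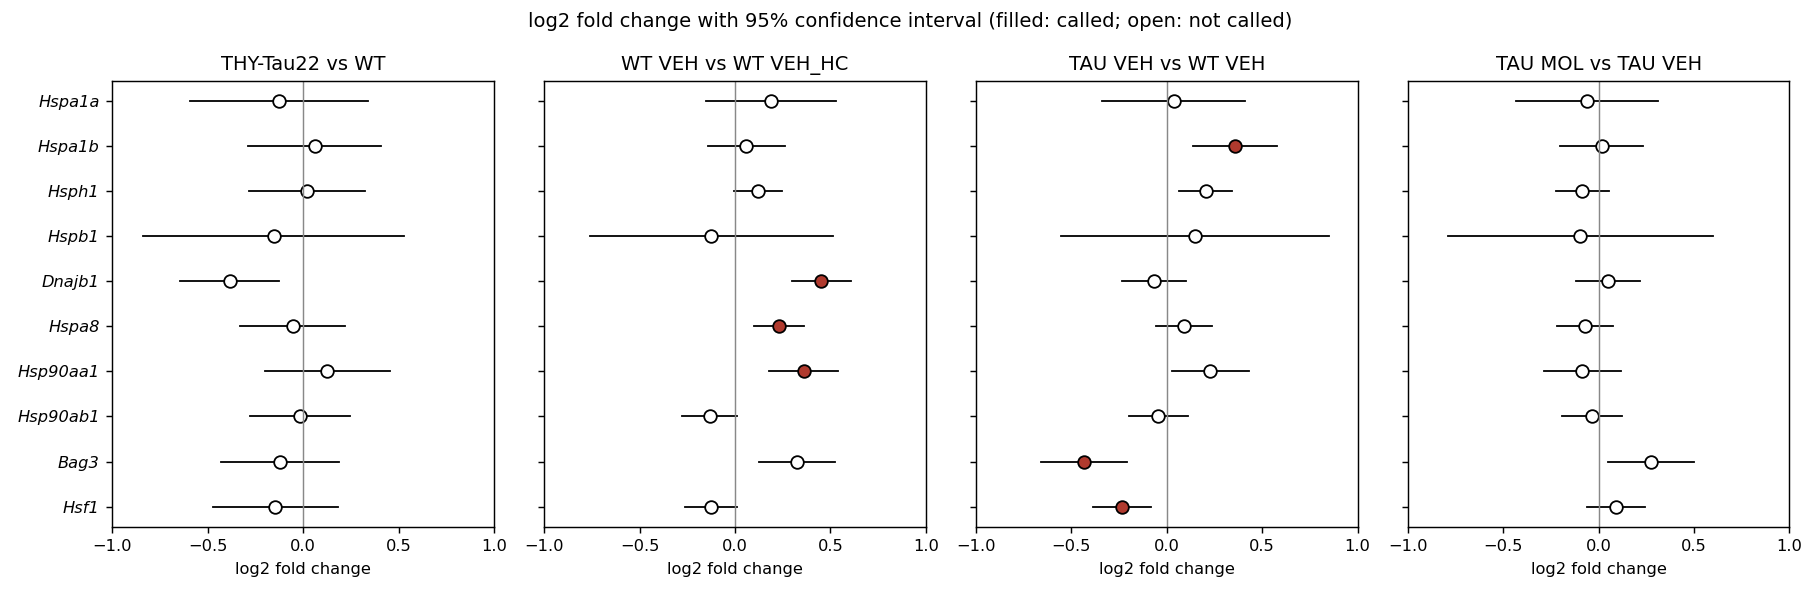
log2 fold change of each gene (circles) with its 95% confidence interval (lines) from the edgeR fit in 4 comparisons, with called genes filled. Dnajb1, Hspa8 and Hsp90aa1 are called higher in trained than in home cage wild types, Hspa1b is called higher and Bag3 and Hsf1 lower in TAU VEH against WT VEH, and no circle is filled for the basal and the CSP-TTK21 comparisons.

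Spatial training was examined in wild-type mice by comparing WT VEH with WT VEH_HC. Dnajb1, Hspa8 and Hsp90aa1 rose, and none of the 10 genes fell. Dnajb1 was measured at 38.1, 38.4 and 35.7 CPM in the home cage and at 51.3 and 51.1 after training. All trained libraries lay above all home cage libraries, and the rise was 1.37-fold (log2 fold change 0.45, SE 0.07, adjusted p = 0.0058). These 3 of 10 genes stand beside 5.35% of all 16820 genes called higher and 3.05% called lower in the same comparison, which is 1413 genes, against 73 without WT VEH replicate 1, 282 without WT VEH replicate 2, 614 without WT VEH_HC replicate 1 and 2798 without WT VEH_HC replicate 3. Library size alone moved the lower share of all called genes from 36.3% to 25.4% and gave 4 higher and 0 lower among the 10. In bulk tissue, more cells of a type and more RNA per cell cannot be told apart.

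Hsp90aa1, the inducible HSP90, gave 234, 218 and 273 CPM in the home cage and 310.3 and 311 after training. It rose 1.28-fold (log2 fold change 0.36, SE 0.08, adjusted p = 0.028, and 0.060 when corrected for GC content and length). Hspa8, the constitutive HSC70, gave 387, 368 and 410 CPM against 456 in both trained libraries, with a log2 fold change of 0.23 (SE 0.06, adjusted p = 0.041). Neither gene overlapped between groups. The co-chaperone Bag3 stood just outside the threshold, at 16.5, 17.6 and 18.7 CPM in the home cage and 24.1 and 20.0 after training (log2 fold change 0.33, adjusted p = 0.0503).

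The stress-inducible HSP70 genes themselves gave smaller differences. Hspa1b was measured at 9.15, 8.94 and 8.71 CPM in the home cage and at 9.04 and 9.59 after training, and Hspa1a at 5.59, 6.42 and 5.18 against 5.83 and 7.26. Both overlapped between groups, and their 95% intervals of −0.14 to 0.26 and −0.15 to 0.53 included 0. Hsph1, the HSP110 exchange factor, lay between 228 and 230 CPM in the 3 home cage libraries and at 248 and 249.5 in the trained ones, which is a difference of 0.12 on the log2 scale (adjusted p = 0.20). Hspb1, the small heat shock protein also called HSP27, ranged from 2.11 to 4.91 CPM over the 9 learning libraries and overlapped between groups in every comparison. Hsp90ab1 and Hsf1 were lower without overlap in trained mice, by −0.13 each on the log2 scale, with adjusted p of 0.21 for both. In all, 5 of the 10 genes were higher without overlap and 2 lower, beside 23.0% and 20.8% of all genes.

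The other cytosolic chaperones and their factors were counted in the same way. Of 61 tested genes of the HSP70, DNAJ, small heat shock, cofactor, CCT and heat shock factor lists, 6 rose (9.84%) and 1 fell (1.64%), beside 5.35% and 3.05% of all genes, with a median log2 fold change of 0.13 against 0.15 for the 10 genes and −0.0028 for all genes. Chordc1 and Cacybp, cofactors of HSP90 complexes, rose by 0.49 each on the log2 scale, and the small heat shock protein Hspb8, a partner of Bag3, by 0.44. Dnajb5 and Dnajb4, relatives of Dnajb1, rose by 0.36 and 0.33. Hspa13, counted here with the HSP70 list although it belongs to the endoplasmic reticulum, rose by 0.50 and is 1 of the 6. The gene that fell was Hspa12a, a distant HSP70 relative, by 0.26 (adjusted p = 0.041). The 14 choroid plexus markers were all called higher in WT VEH, with a median log2 fold change of 3.21. Of 5 blood markers, 2 were called higher, as was 1 each of the astrocyte, neuron and microglia markers, and none of these was called lower. Blood markers summed to 32.4 to 36.9 CPM against 22.5 to 28.5 in the home cage, and astrocyte markers to 909 to 989 against 823 to 891. The part of these markers in the results was not tested. Leaving out WT VEH replicate 1 left 1 WT VEH library, which is then taken to vary like the other groups and is too little to judge a call. The log2 fold changes were then 0.45 for Dnajb1, 0.23 for Hspa8 and 0.36 for Hsp90aa1. Without WT VEH replicate 2, which also leaves 1 WT VEH library, they were 0.46, 0.23 and 0.36 in the same order. Without WT VEH_HC replicate 1, Dnajb1 alone was called, with adjusted p of 0.083 for Hspa8 and 0.066 for Hsp90aa1. Without WT VEH_HC replicate 2 the adjusted p of Hspa8 was 0.098. With every library kept, fitting the 2 groups alone also ended the calls of Hspa8 (adjusted p = 0.10) and Hsp90aa1 (0.072). Bag3 was called without WT VEH_HC replicate 3 (adjusted p = 0.028) but lay at 0.18 without WT VEH replicate 1 (adjusted p = 0.42). It was also called with library size alone, no filter, the GC content and length correction or DESeq2 (adjusted p from 0.016 to 0.045), and not with the median of ratios (0.054) or the 2 groups alone (0.11).

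Trained THY-Tau22 mice given the carrier were then compared with trained wild types. Hspa1b rose, whereas Bag3 and Hsf1 fell. Hspa1b was measured at 9.04 and 9.59 CPM in WT VEH and at 11.5 and 12.5 in TAU VEH, a 1.28-fold rise (log2 fold change 0.36, SE 0.10, adjusted p = 0.034). Its neighbour Hspa1a, at 5.83 and 7.26 CPM against 7.52 and 5.74, overlapped fully between groups. The interval for Hspa1a, −0.34 to 0.41, was too wide to set it apart from Hspa1b.

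Bag3 gave 24.1 and 20.0 CPM in WT VEH and 16.2 and 16.5 in TAU VEH, a fall by 0.43 on the log2 scale (SE 0.10, adjusted p = 0.015). Hsf1, the gene of the factor itself, fell by 0.24 (SE 0.07, adjusted p = 0.040), from 41.9 and 38.7 CPM to 34.4 and 34.2, but turned to 0.02 when corrected for GC content and length, under which Bag3 was not called either (−0.23, adjusted p = 0.28). Neither overlapped between groups, and Bag3 in TAU VEH lay at −0.11 against the untrained wild types (adjusted p = 0.41). The exchange factor Hsph1, with 299 and 273 CPM in TAU VEH, was higher without overlap but missed the threshold (log2 fold change 0.20, adjusted p = 0.056). Hsp90aa1, with 372 and 355 CPM, did so as well (log2 fold change 0.23, adjusted p = 0.13). Hsph1 was called with the median of ratios, library size alone, DESeq2 or the 2 groups alone (adjusted p from 0.0051 to 0.044), but lay at 0.11 when corrected for GC content and length (adjusted p = 0.43) and at 0.13 without TAU VEH replicate 1 (0.41). Hsp90aa1 was called with library size alone, no filter or the 2 groups alone (adjusted p from 0.011 to 0.041), and lay at 0.12 under that correction (0.55).

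The background was large in this comparison, with 3.61% of all genes called higher and 10.8% lower, so the counts of 1 and 2 of 10 stand near it. Without overlap, 4 of the 10 genes were higher and 3 lower, beside 28.5% and 29.4% of all genes. Scaling by library size alone moved the median of all genes to 0.15 on the log2 scale, and the share of calls that were lower from 74.9% to 28.3% of the called genes. Under it 4 of the 10 were called higher (Hspa1b, Hsph1, Hspa8 and Hsp90aa1) and 0 lower, while size factors by the median of ratios gave 2 higher (Hspa1b and Hsph1) and 1 lower (Bag3). Leaving out any 1 of the 4 libraries ended the call of Hspa1b (adjusted p from 0.098 to 0.18) and that of Hsf1 (0.058 to 0.26). With every library kept, DESeq2 and the fit without a filter on low counts also ended both calls, with adjusted p of 0.051 and 0.056 for Hspa1b and 0.075 and 0.10 for Hsf1. Bag3 kept its call without WT VEH replicate 2 alone (adjusted p = 0.014), against 0.16 without WT VEH replicate 1, where its log2 fold change was −0.28, 0.12 without TAU VEH replicate 1 and 0.073 without TAU VEH replicate 2.

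Of the 61 other cytosolic genes tested, 3 rose and 3 fell, 4.92% each, against which the background above should be read. Bag6 and Hspbp1, a BAG-domain factor and an HSP70 exchange factor, fell by 0.54 and 0.53 on the log2 scale. Hsf4, a relative of Hsf1, fell by 0.35. The higher genes were Dnajc6, a J-domain protein of clathrin uncoating, at 0.33, Bag4 at 0.31 and the HSP110-type Hspa4 at 0.25. All 14 choroid plexus markers were called lower, with a median log2 fold change of −2.29, as were 4 of the 8 neuron markers, with 1 higher, and their part was not tested.

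The effect of TTK21 was examined between TAU MOL and TAU VEH, which differ in the molecule loaded on the carrier. None of the 10 genes was called in this comparison, nor was any of the 16820 genes (0% higher and 0% lower), although 1064 had an unadjusted p under 0.05 in the edgeR test and DESeq2 called 54 genes, with none of the 10 among them. Bag3 came nearest, at 16.2 and 16.5 CPM with CSP alone against 19.3 and 20.2 with CSP-TTK21. The groups did not overlap, and the log2 fold change was 0.27 (SE 0.10, unadjusted p = 0.021, adjusted p = 0.69). In 11 alternative fits the adjusted p was 0.29 to 1.0. The choroid plexus markers had a median log2 fold change of 1.06 here, with 0 of 14 called. Of the 61 other cytosolic chaperones and factors tested, 0 were called.

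The genes called in other comparisons gave the following differences between both THY-Tau22 groups. Hspa1b gave 11.7 and 12.5 CPM in TAU MOL, with an interval of −0.20 to 0.23 around a log2 fold change of 0.02. Dnajb1 gave 47.5 and 53.6 CPM, with an interval of −0.12 to 0.22. Hspa8 and Hsp90aa1 were lower without overlap in TAU MOL, at 469 and 454 CPM and at 334 and 351 CPM, but the differences of −0.07 and −0.09 on the log2 scale had adjusted p of 0.95 and 0.96. Hsf1 was higher without overlap, at 36.7 and 36.3 CPM, by 0.09 (adjusted p = 0.92). With Bag3 and Hsf1 higher and Hspa8 and Hsp90aa1 lower, 2 of the 10 genes lay on each side without overlap, beside 21.5% higher and 17.4% lower of all genes.

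Set against WT VEH, TAU MOL gave no call among the 10 genes either, in a comparison where 0.612% of all genes were called higher and 5.02% lower, which is 947 genes, against 2 to 4 when any 1 of the 4 libraries was left out. Hspa1b lay at 0.37 (SE 0.10, adjusted p = 0.051), beside 0.36 in TAU VEH against the same WT VEH libraries. Bag3 lay at −0.16 (adjusted p = 0.44), beside −0.43 in TAU VEH. Hsf1 lay at −0.15 (adjusted p = 0.27), beside −0.24. The 2 WT VEH libraries moved these values in TAU MOL, Bag3 to −0.0044 without replicate 1 and −0.29 without replicate 2, and Hsf1 to −0.08 without replicate 1. Bag3 and Hsf1 were thus called against WT VEH in the carrier group and not in the TTK21 group, but the direct comparison above did not show these 2 groups to differ. Of the 61 other cytosolic genes, 0 were called higher and 2 lower (3.28%), Hspbp1 at −0.42 (adjusted p = 0.019) and Bag6 at −0.38 (adjusted p = 0.013). In this comparison 8 of the 14 choroid plexus markers were called lower, with a median log2 fold change of −1.37, as were 3 of the 8 neuron markers, with 1 higher, and their part was not tested. Hspa1b was called with the median of ratios (adjusted p = 0.048), DESeq2 (0.045), the 2 groups alone (0.042) and library size alone (0.030), the last with the median of all genes at 0.12 and the lower share of called genes going from 89.1% to 30.1%.

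The trained THY-Tau22 groups were also set against the home cage wild types, which they share as controls with the training comparison and from which they differ in genotype, carrier and training at once. In TAU VEH, Hspa1b, Hsph1, Dnajb1, Hspa8 and Hsp90aa1 rose and Hsf1 fell. Hsp90aa1 lay at 218 to 273 CPM in the home cage and at 355 and 372 in TAU VEH, a 1.5-fold rise (log2 fold change 0.59, SE 0.08, adjusted p = 0.00042). Hsf1 fell by 0.36 (SE 0.06, adjusted p = 0.0012), from 43.9 to 44.2 CPM in the home cage to 34.4 and 34.2, but lay at −0.07 after a correction for GC content and length (adjusted p = 0.51). The background was 16.2% of all genes higher and 18.2% lower. Of the 14 choroid plexus markers, 6 were called higher in TAU VEH and 14 in TAU MOL, with median log2 fold changes of 0.95 and 2.09. Of the 6 astrocyte markers, 4 were called higher and 1 lower in TAU VEH, and 3 higher and 1 lower in TAU MOL, with sums of 1012 to 1040.1 and 919 to 1059.6 CPM against 823 to 891 in WT VEH_HC. Of the 8 neuron markers, 4 and 3 were called lower. The part of these markers in the results, and in those of the other chaperones that follow, was not tested.

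Hspa1b rose by 0.42 on the log2 scale with CSP (adjusted p = 0.0043) and by 0.43 with CSP-TTK21 (adjusted p = 0.0045). Dnajb1 rose by 0.39 and 0.43, Hsph1 by 0.32 and 0.24, and Hspa8 by 0.32 and 0.25. In WT VEH, against these same home cage libraries, the values were 0.06 for Hspa1b, 0.45 for Dnajb1, 0.12 for Hsph1 and 0.23 for Hspa8. The direct difference of TAU VEH from WT VEH was −0.07 for Dnajb1, with an interval of −0.24 to 0.10, and 0.36 for Hspa1b, as given above.

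TAU MOL gave 5 higher and 2 lower, beside 14% of all genes in the one direction and 14.9% in the other. The lower genes were Hsf1 (log2 fold change −0.27, adjusted p = 0.0077) and Hsp90ab1, the constitutive HSP90, at 2185, 2011 and 2082 CPM in the home cage and 1877 and 1737 in TAU MOL (log2 fold change −0.21, adjusted p = 0.031). In TAU VEH Hsp90ab1 gave 1851 and 1853 CPM, lower without overlap but not called (log2 fold change −0.18, adjusted p = 0.056, and 0.048 without WT VEH_HC replicate 2). Its call in TAU MOL was lost without WT VEH_HC replicate 1 (adjusted p = 0.071) or either TAU MOL library (0.058 and 0.24), and with the 2 groups alone (0.091). Without TAU MOL replicate 1 or replicate 2, 3 of the 10 genes were called, with adjusted p of 0.054 for Hspa1b without replicate 2, 0.093 for Hspa8 without replicate 1, 0.052 to 0.094 for Hsph1 and 0.058 to 0.068 for Hsf1. Library size alone gave 5 higher and 0 lower in TAU VEH, and 6 higher and 0 lower in TAU MOL, with the median of all genes at 0.15 and 0.13 and the lower share of called genes going from 52.9% to 23.5% and from 51.6% to 20.6%.

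Among the other cytosolic chaperones and factors in TAU VEH, 22 of the 61 tested genes were higher (36.1%) and 7 lower (11.5%), beside 16.2% and 18.2% of all genes, with a median of 0.15. TAU MOL had 18 higher (29.5%) and 7 lower (11.5%), beside 14% and 14.9% of all genes, with a median of 0.11. The medians over the 10 genes were 0.27 and 0.20, and those over all genes −0.012 and −0.0079. Chordc1 rose by 0.62 and 0.57, and Dnaja1, a further J-domain partner of HSP70, by 0.48 and 0.39. Hspa13, which is among the 61 although it belongs to the endoplasmic reticulum, rose by 0.69 and 0.57. Cct4, a subunit of the CCT ring that folds actin and tubulin, rose by 0.41 and 0.33. Bag6 fell by 0.60 and 0.45, and Hspa12b, an endothelial HSP70 relative, by 0.85 and 0.75. Hsf4 fell by 0.57 in TAU VEH, where 1 gene of the heat shock factor list was called higher. The 6 endothelial markers had medians of −0.29 and −0.34, with 1 and 2 called lower, and summed to 229 CPM in WT VEH_HC replicate 2 against 114 to 160.1 in the other 8 learning libraries.

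**Figure D4:**
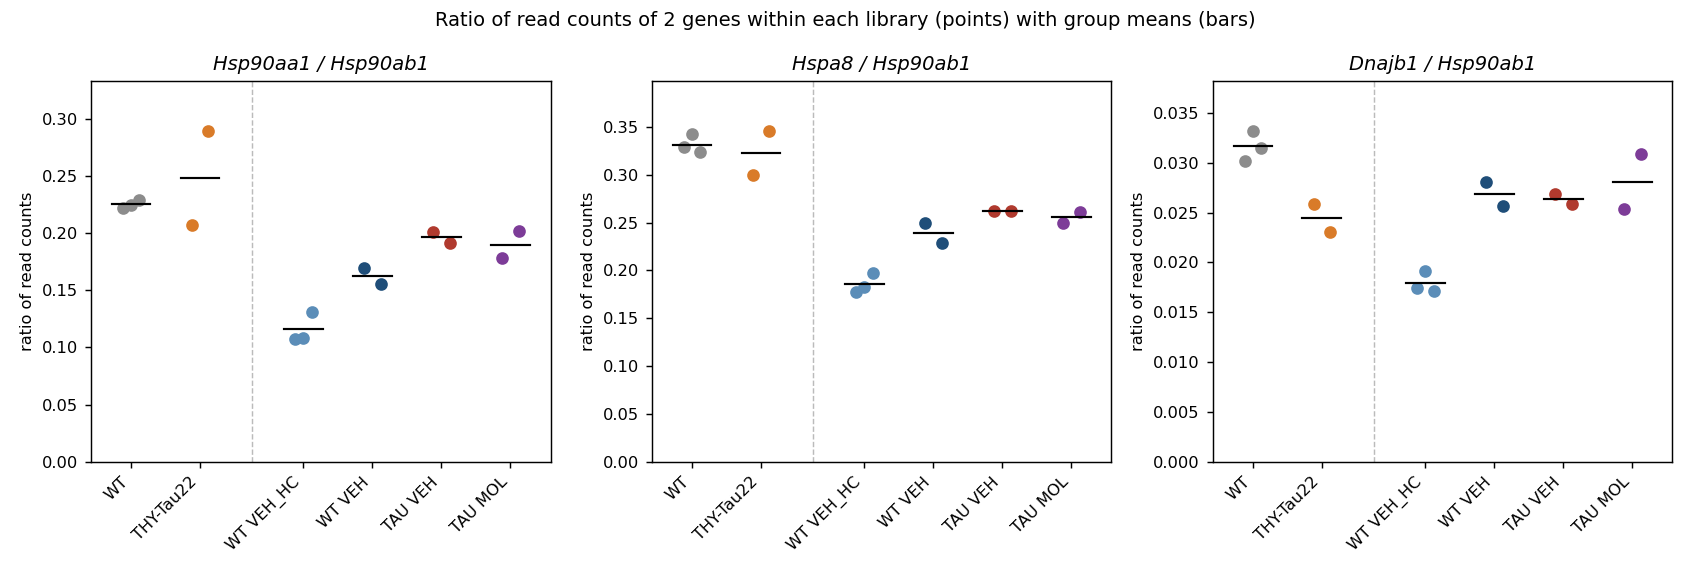
Ratio of the read counts of Hsp90aa1, Hspa8 or Dnajb1 to those of Hsp90ab1 in each library (points) with group means (bars), linear axes from 0. In the learning experiment, every trained library lies above every home cage library in all 3 ratios, whereas the basal groups overlap for Hsp90aa1 and Hspa8. Hsp90ab1, the shared denominator, is itself lower in every trained library than in the home cage.

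Both HSP90 genes were set against each other without any scaling between libraries, by the ratio of Hsp90aa1 to Hsp90ab1 counts within each library. The ratio was 0.107 to 0.131 in WT VEH_HC, 0.156 and 0.170 in WT VEH, 0.192 and 0.201 with CSP in THY-Tau22, and 0.178 and 0.202 with CSP-TTK21. All 6 trained libraries lay above the 3 of the home cage, and those of both THY-Tau22 groups above those of WT VEH. In the basal experiment the ratio was 0.222 to 0.229 in WT and 0.207 and 0.290 in THY-Tau22, so these groups overlapped. The ratio of Dnajb1 to Hsp90ab1 was 0.0171 to 0.0191 in WT VEH_HC and 0.0253 to 0.0308 in the 6 trained libraries. In basal WT it was 0.0302 to 0.0332 and in basal THY-Tau22 0.0231 and 0.0259. The Hspa1b to Hspa1a ratio was 1.39 to 1.68 in WT VEH_HC, 1.32 and 1.55 in WT VEH, 1.53 and 2.17 with CSP in THY-Tau22, and 1.81 and 1.96 with CSP-TTK21. Only TAU MOL stood above both wild-type groups there. Hsp90ab1, the denominator for Hsp90aa1 and Dnajb1, was itself lower without overlap in each trained group than in WT VEH_HC. Its log2 fold changes were −0.13 in WT VEH, −0.18 in TAU VEH and −0.21 in TAU MOL, of which only the last was called. A ratio of counts also keeps any GC difference between libraries, and Hsp90aa1 has 45.5% GC against 50.9% for Hsp90ab1. These ratios are descriptions, and neither they nor the part of their denominator was tested.

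Since the libraries differ in GC content along the groups, the composition of the 10 genes is given beside their changes. Hsp90aa1 (45.5% GC), Hsph1 (46.5%) and Hspa8 (49.6%) were the 3 lowest in GC, and all had positive log2 fold changes in the 3 comparisons plotted. Hsf1 (58.0%) and Bag3 (56.3%), called lower in TAU VEH against WT VEH, were among the higher. Hspa1b (58.1%) and Dnajb1 (55.4%) were high in GC, and both rose in TAU VEH against WT VEH_HC. A correction for GC content and length gave other values. For TAU VEH against WT VEH it gave 0.63 for Hspa1b (adjusted p = 0.0096), which was still called, −0.23 for Bag3 (adjusted p = 0.28) and 0.02 for Hsf1 (adjusted p = 0.92), which turned in sign. For WT VEH against WT VEH_HC it gave 0.50 for Dnajb1, 0.26 for Hspa8 and 0.38 for Bag3, all called, and 0.30 for Hsp90aa1 (adjusted p = 0.060). For TAU VEH against WT VEH_HC, Hsf1 moved to −0.07 (adjusted p = 0.51) and Hspa1a to 0.57 (adjusted p = 0.039), and the 5 genes that rose were all still called, with Hspa1b at 0.73, Dnajb1 at 0.60, Hsp90aa1 at 0.42, Hspa8 at 0.32 and Hsph1 at 0.22. For TAU MOL against WT VEH_HC, Hspa1b moved to 0.66 and Bag3 was called higher at 0.36, while Hsph1 (0.14, adjusted p = 0.13), Hsp90ab1 (−0.18, adjusted p = 0.096) and Hsf1 (−0.06, adjusted p = 0.60) were no longer called.

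**Figure D5:**
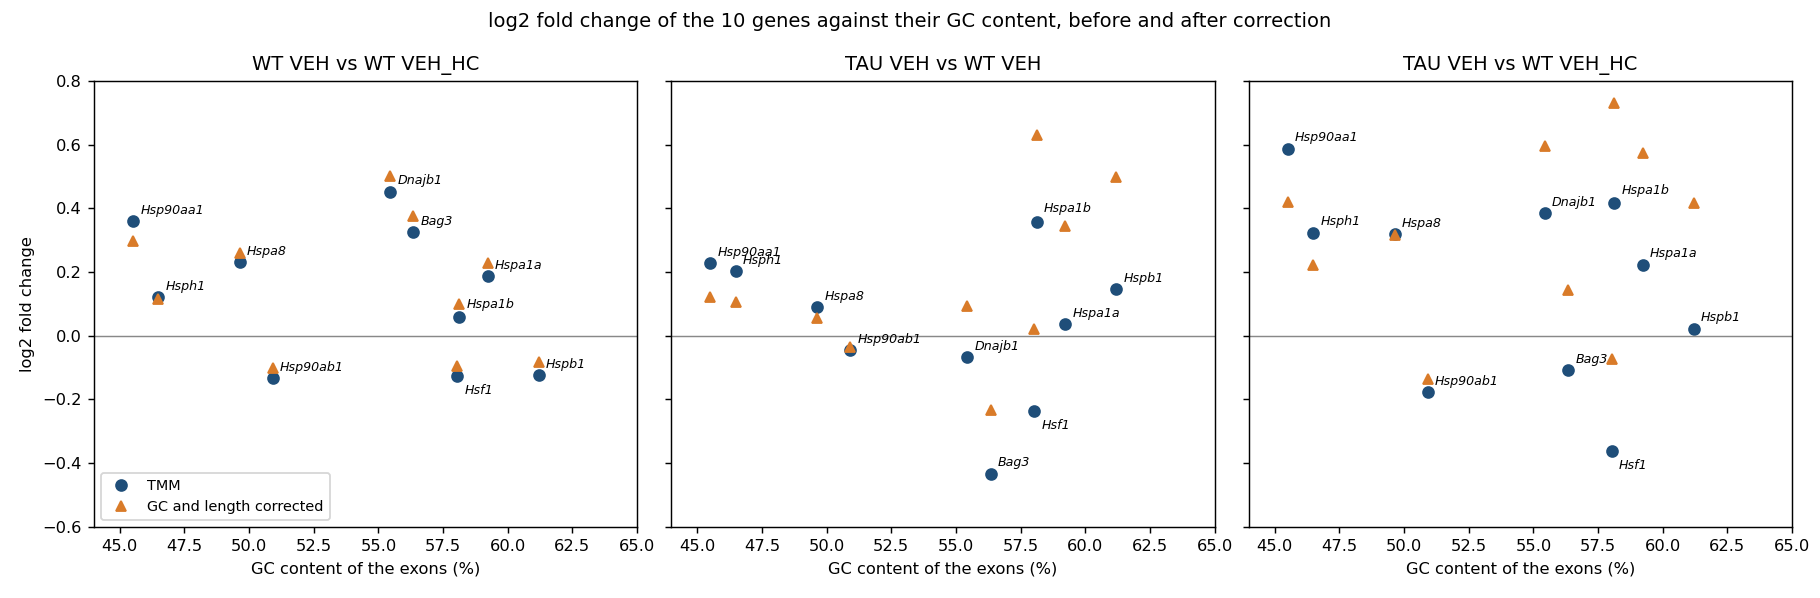
log2 fold change of each of the 10 genes against the GC content of its exons in % in 3 comparisons, from the fit with TMM scaling (circles) and after a correction for GC content and length (triangles). The 6 genes highest in GC move upward with the correction in each panel, Hsf1 in TAU VEH against WT VEH from −0.24 to 0.02.

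Across the 9 learning libraries, the log2 CPM of Hspa8 and Hsp90aa1 went together most closely of all pairs (Pearson r = 0.97), followed by Hsph1 with Hsp90aa1 (r = 0.90). Hsf1 went against Hsph1 (r = −0.95), Hspa1b (r = −0.93) and Hsp90aa1 (r = −0.91). Bag3 and Hspb1 followed none of them closely, with r from −0.38 to 0.42 for Bag3 and −0.34 to 0.43 for Hspb1. Among 9332 other genes with a mean of at least 10 CPM, the course most like the mean of Hspa1a, Hspa1b, Hsph1, Dnajb1, Hspb1 and Bag3 was that of Kdsr (r = 0.97), followed by Hnrnpu, Prpf38b, Cys1 and Ebna1bp2 (r = 0.96 to 0.97). These correlations describe 9 libraries in 4 groups whose GC composition differs by group.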

How the data were processed

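Poly(A) RNA of the dorsal hippocampus was made into TruSeq v2 libraries, a kit that does not mark strand. Per the labels and methods, the authors aligned single-end reads to mm9 with TopHat2 2.0.10 and Bowtie2 2.1.0 and counted uniquely aligned reads per Ensembl gene with HTSeq 0.5.4p3. The deposited tables hold raw counts and, as a normalized signal, the authors' counts divided by a size factor, which were only used to check columns. Columns of the authors' comparisons (fold changes and p-values) and 138 lines without values in the learning table were not used. The study left out libraries after inspection, which are not analysed here. The labels number the replicates, and the study's methods count each library as a mouse.

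Counts were analysed in edgeR 4.0.16 (R 4.3.3) with filterByExpr, TMM scaling, the quasi-likelihood F test and Benjamini-Hochberg adjustment over all genes, each table in its own fit (5 libraries, 16324 genes tested; 9 libraries, 16820 genes tested), with no replicate block. A call needed a log2 fold change beyond 0.2 in either direction together with an adjusted p below 0.05. The script was tested on simulated counts. With 2 or 3 libraries a group, precision is set by the spread between libraries, with a common biological coefficient of variation of 0.129 in the basal and 0.0840 in the learning fit. Alternatives were DESeq2 1.42.0, other scalings, no filter, a replicate block, a loess correction for GC content and length (span 0.3), the 2 groups alone, no fold limit and each library left out. Exon models, lengths and genome windows came from GENCODE vM1 on mm9, close to but not the release the authors counted with. Other chaperones are named only where called, at most 4 per list by the size of change with a mean of at least 5 CPM. Against the home cage, fewer than that are named. The genes and lists were chosen with earlier results of these data known.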

Additional observations from a re-analysis of the deposited data

How the results depend on the processing

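Counts of the 10 genes called moved by over 1.5 times as follows. For WT VEH against WT VEH_HC (3), the 2 groups alone gave 1, and leaving out a library 0 to 4. For TAU VEH against WT VEH (3), the replicate block gave 5, the 2 groups alone 5 and the GC content and length correction 1, and leaving out a library 0 to 1. For TAU MOL against WT VEH (0), the median of ratios, library size alone, the replicate block, DESeq2 and the 2 groups alone each gave 1, which was Hspa1b. For TAU MOL against WT VEH_HC (7), leaving out a library gave 3 to 7. In the other comparisons no alternative changed the count by over 1.5 times, with 0 throughout for THY-Tau22 against WT and TAU MOL against TAU VEH. Hsf1 reversed under the GC content and length correction in TAU VEH against WT VEH (0.021), and Hspa1a in TAU VEH against WT VEH_HC ran from −0.0027 to 0.39 when a library was left out. The causes were not tested. Over the alternatives that keep every library, calls among all genes ran from 4 to 125 for THY-Tau22 against WT (4 as reported), 310 to 3000 for training (1413), 489 to 3598 for TAU VEH against WT VEH (2423), 0 to 233 for TAU MOL against TAU VEH (0), 25 to 1590 for TAU MOL against WT VEH (947), 1779 to 6518 for TAU VEH against the home cage (5782) and 1573 to 5576 for TAU MOL against the home cage (4864). With a library left out they ran from 1 to 15, 73 to 2798, 915 to 1276, 0 to 11, 2 to 4, 3273 to 5985 and 2319 to 5269, in the same order. Same-numbered libraries are not stated to share anything, and their deviations correlated by −0.16 to 0.24, so the paired fit is given here only. Few reads limit Hspb1 and Hspa1a, and 2 libraries in most groups limit every call.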

Other observations

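Chaperones of other compartments were also measured. Of 12 endoplasmic reticulum chaperones, 7 rose and 0 fell in trained against home cage wild types, beside 5.35% and 3.05% of all genes. All 14 choroid plexus markers were called higher in the same comparison, with a median log2 fold change of 3.21, and their part was not tested. Hspa5, the HSP70 of this compartment also called BiP, had a mean of 139 CPM in the home cage and 201 after training (log2 fold change 0.53, adjusted p = 0.0070). Sdf2l1 rose by 0.50, Pdia4 by 0.44 and Dnajc3 by 0.42 on the log2 scale. In TAU VEH against WT VEH, Sdf2l1 fell by 0.53 (adjusted p = 0.023) and the other 11 were not called, while all 14 choroid plexus markers were called lower, with a median of −2.29. Against the home cage, 6 of the 12 rose in TAU VEH, beside 16.2% of all genes higher and 18.2% lower, and 5 in TAU MOL, beside 14% and 14.9%. The choroid plexus markers called higher there were 6 of 14 and 14 of 14. Calr and Hyou1 fell in TAU VEH by 0.33 and 0.32, and Hyou1 in TAU MOL by 0.25, Hyou1 being named after its values were seen. Of 6 mitochondrial chaperones, Hspd1 and Hspe1 rose in TAU VEH against the home cage, by 0.33 and 0.26, and none was called in any other comparison.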
